A study of Sus scrofa with 18 samples.

Results

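The genes that code for the proteins of the cytosolic ribosome were examined in subcutaneous fat (SAF) and visceral fat (VAF) of growing pigs. They were chosen by symbol, as every gene named RPL or RPS followed by a number with at most 1 of the letters A, X or L, or by P0, P1, P2 or A. This took 79 of the 29884 genes in the table, 47 of the large and 32 of the small ribosomal subunit. They lie on 17 chromosomes of Sscrofa11.1, with 12 on chromosome 1 and 11 on chromosome 6. The tissue came from 9 male Bama pigs, a miniature breed, all by the same sire, kept alike, fasted before slaughter and given no other treatment. SAF was taken from the back and VAF from beside the kidney at 1, 3 and 6 months, which gives 6 groups of 3 RNA-seq libraries named SAF1, SAF3, SAF6, VAF1, VAF3 and VAF6 by depot and age. A library is written with its replicate number, such as VAF3-1. The study excluded VAF6-3 from its tests, and so do the tests here, which leaves 2 libraries in VAF6. For 4 VAF samples the title and the name of the library in the count table differ. For VAF6-1 and VAF3-3 they give different ages, and for VAF6-2 and VAF6-3 only different replicate numbers. The library names are followed here. The reading by title, which puts VAF6-1 in place of VAF3-3 at 3 months, is given where it changes a result.

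A ribosome is built from a few ribosomal RNAs and many small proteins, nearly every one of which is needed in the same amount. Most of these proteins come from 1 expressed gene each, and the genome also holds many reverse-transcribed copies. In vertebrates their messenger RNAs begin with a cytosine and an unbroken run of pyrimidines, the 5′ terminal oligopyrimidine (TOP) tract, through which the growth-sensing kinase mTOR and the protein LARP1 set their translation together. The counts used here measure the RNA and say nothing of its translation. In whole tissue, fewer cells of a type and less RNA per cell cannot be told apart.

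The libraries held 16404239 (SAF6-3) to 22857354 (VAF1-3) counts. Adipocyte markers, 13 genes fixed as a list, summed to 7440 to 24200 CPM (counts scaled to the same total in each library) and were present in every library. VAF3-1 and VAF3-2 stood apart from the other 16 libraries. Their smooth muscle markers summed to 10600 and 9010 CPM against 405 to 1540 elsewhere, with 9 of 9 genes above every other library. Their urothelium markers summed to 2200 and 950 CPM against 3.23 to 13.7, with 7 of 9 genes above every other library and KRT20 at 0 in all 18. Their adipocyte markers summed to 8620 and 7440 CPM, below the 13800 to 24200 of the rest. Their skeletal muscle markers, a list of 14, were also the highest, at 167 and 128 CPM against 8.87 to 109, with 4 genes above every other library. Results that compare VAF3 are therefore also given without these libraries.

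The start of the annotated transcript is shown for 8 members, since the TOP tract is the sequence feature this family is known for. Each line gives 30 bases in the direction of transcription, from 10 before the annotated start to 20 from it on, read from Sscrofa11.1 with the RefSeq annotation, and capitals mark the unbroken pyrimidine run that begins at the start.
RPL10 (chrX:124927239-124927268, plus strand): gtgggagcgcCTCTTTTCCTTCggcgcggt
RPLP2 (chr2:507881-507910, plus strand): gcgccggcgtCTTCCTTTCTgtccctgacg
RPL13A (chr6:54564783-54564812, plus strand): ccaagagttcCTTCTTTCCCaggcagctgc
RPL6 (chr14:39302437-39302466, plus strand): ggccttagttCTCTTTCCCatcttgcaagg
RPS20 (chr4:75762199-75762228, plus strand): tcacgccttcCTCTTTgaagaagacgcagc
RPLP0 (chr14:40223924-40223953, minus strand): tacagccctcCTCTCgccaggcgtcctcgt
RPL37 (chr16:25803507-25803536, minus strand): ggaagtgcttTCTCTTCCggcctctttggt
RPS21 (chr17:61763596-61763625, plus strand): cttcctttctgcgctcgcgctcatcgtggt
The first 6 begin with a cytosine and a run of at least 4 pyrimidines in all. RPL37 begins with a thymine by the annotation, and the window of RPS21 holds its pyrimidine run before the annotated start. By this definition 21 of the 79 members (26.6%) had a tract at the annotated start, against 934 of 19460 other protein-coding genes (4.8%). Among genes whose first transcript is a curated RefSeq record, the shares were 16 of 42 members (38.1%) and 4.55% of 3909 others. At least 1 of the motif CTTTC, the motif CTTTT, the motif CTCTT, the motif CTTCC and the motif CTTCT, which can overlap each other and were searched on the transcribed strand only, lay within the 50 bases from 30 before to 20 after the start in 52 members (65.8%) and in 24.7% of the other genes. These motifs were picked after the starts had been seen, so the shares are a description.

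The members together took 4.10% (VAF6-2) to 11.2% (VAF3-2) of all counts in a library, a 2.74-fold range. In SAF1 the share was 4.43%, 6.51% and 4.60%, and in VAF1 it was 6.92%, 6.60% and 5.91%. In SAF3 it was 4.90%, 7.04% and 7.42%, and in VAF3 it was 10.96%, 11.24% and 5.96%. In SAF6 it was 5.40%, 5.02% and 5.84%, and in VAF6 it was 6.67% and 4.10%, with 5.46% in VAF6-3. VAF3-1 and VAF3-2 were the highest of all libraries, while VAF3-3 lay among the other groups. The group means were 5.18% ± 1.16 (SD, n = 3) in SAF1, 6.45% ± 1.36 (SD, n = 3) in SAF3, 5.42% ± 0.409 (SD, n = 3) in SAF6, 6.48% ± 0.517 (SD, n = 3) in VAF1, 9.39% ± 2.97 (SD, n = 3) in VAF3 and 5.38% ± 1.82 (SD, n = 2) in VAF6. In each of the 9 comparisons made here the groups overlapped in this share, which does not show equal means. By the reading by title, with VAF3-3 left out, VAF6 held VAF6-2 and VAF6-3 at 4.10% and 5.46%. Both lay below VAF1, at 5.91% to 6.92%, and below VAF3, then at 6.67% to 11.24%, so those groups did not overlap. The counting error was far smaller than the spread between libraries. Its 95% Wilson intervals reached at most 0.015 percentage points to either side and cover counting error only.

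**Figure D1:**
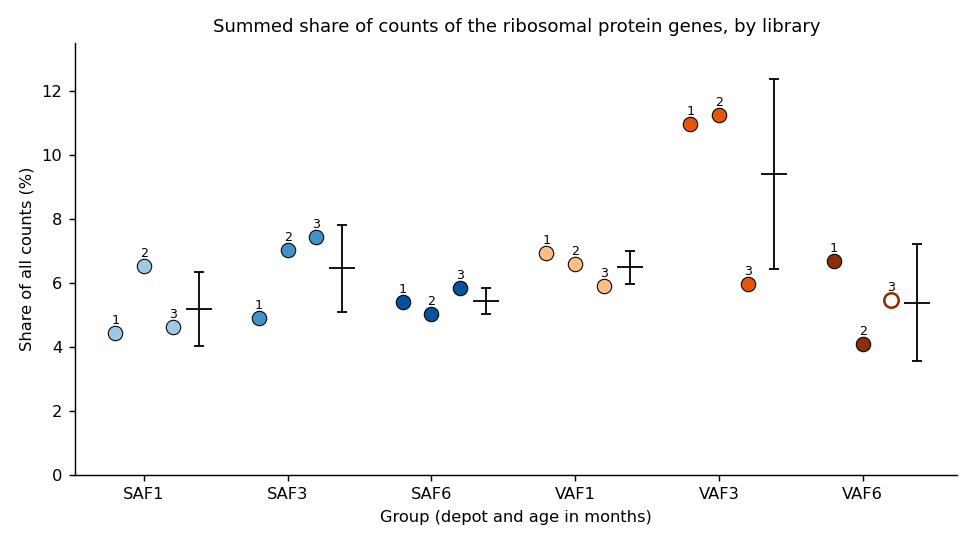
Share of all counts, in percent, taken by the 79 ribosomal protein genes in each library (points, numbered by replicate) of the 6 groups, with the group mean and SD as a bar beside them; the open point is VAF6-3, which is not in its group's mean. VAF3-1 and VAF3-2 lie at 10.96% and 11.24%, and the other 16 libraries between 4.10% and 7.42%.

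Both subunits moved together across libraries. The large subunit genes held 2.39% to 6.57% of the counts and the small subunit genes 1.70% to 4.67%, and the ratio of the former to the latter stayed between 1.39 (VAF1-3) and 1.48 (SAF3-2). Among the 100 genes with the most counts, members numbered 8 in VAF6-2, 43 in VAF3-1 and 42 in VAF3-2. The mitochondrial genes took 5.11% and 4.83% of counts in VAF3-1 and VAF3-2, 12.6% in SAF6-1 and 2.88% in VAF6-3. Their part in the members' share was not tested.

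The single genes varied together from library to library, in an order close to but not the same as that of the share. For the 77 members with at least 30 counts in every library, each level was set against the gene's own mean over the 18 libraries on a log2 scale, after scaling with TMM factors (trimmed mean of M values, which correct for differences in RNA composition). None of the 77 was above its own mean in SAF1-1, SAF1-3 or VAF6-2. All 77 were above it in VAF3-1, 76 in VAF3-2, VAF6-1 and SAF3-3, and 75 in SAF3-2, against 10 in VAF3-3 and 5 in SAF3-1. The median of the 77 was 0.70 and 0.79 in VAF3-1 and VAF3-2, −0.14 in VAF3-3, −0.48 and −0.43 in SAF1-1 and SAF1-3 and 0.11 in SAF1-2. In SAF3 it was −0.22, 0.22 and 0.40, and in SAF6 it was 0.04, −0.17 and −0.31. In VAF1 it was 0.182, 0.0101 and −0.133, and in VAF6 it was 0.296 and −0.475, with −0.406 in VAF6-3. SAF1, SAF3, VAF3 and, with VAF6-3 counted, VAF6 thus each held 1 library apart from the other 2. The library apart in VAF6 was VAF6-1, which the title places in VAF3. With the library's median taken out, 84.5% of the 1386 values lay within 0.2 of 0, and the median SD of a member over libraries went from 0.406 to 0.132. The median taken out is that of the same 77 genes, and the step was not run on other genes. The fall is therefore a description and has no background beside it. The median SD of the 11452 genes that met the same count limit was 0.373, close to that of the members before this step.

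**Figure D2:**
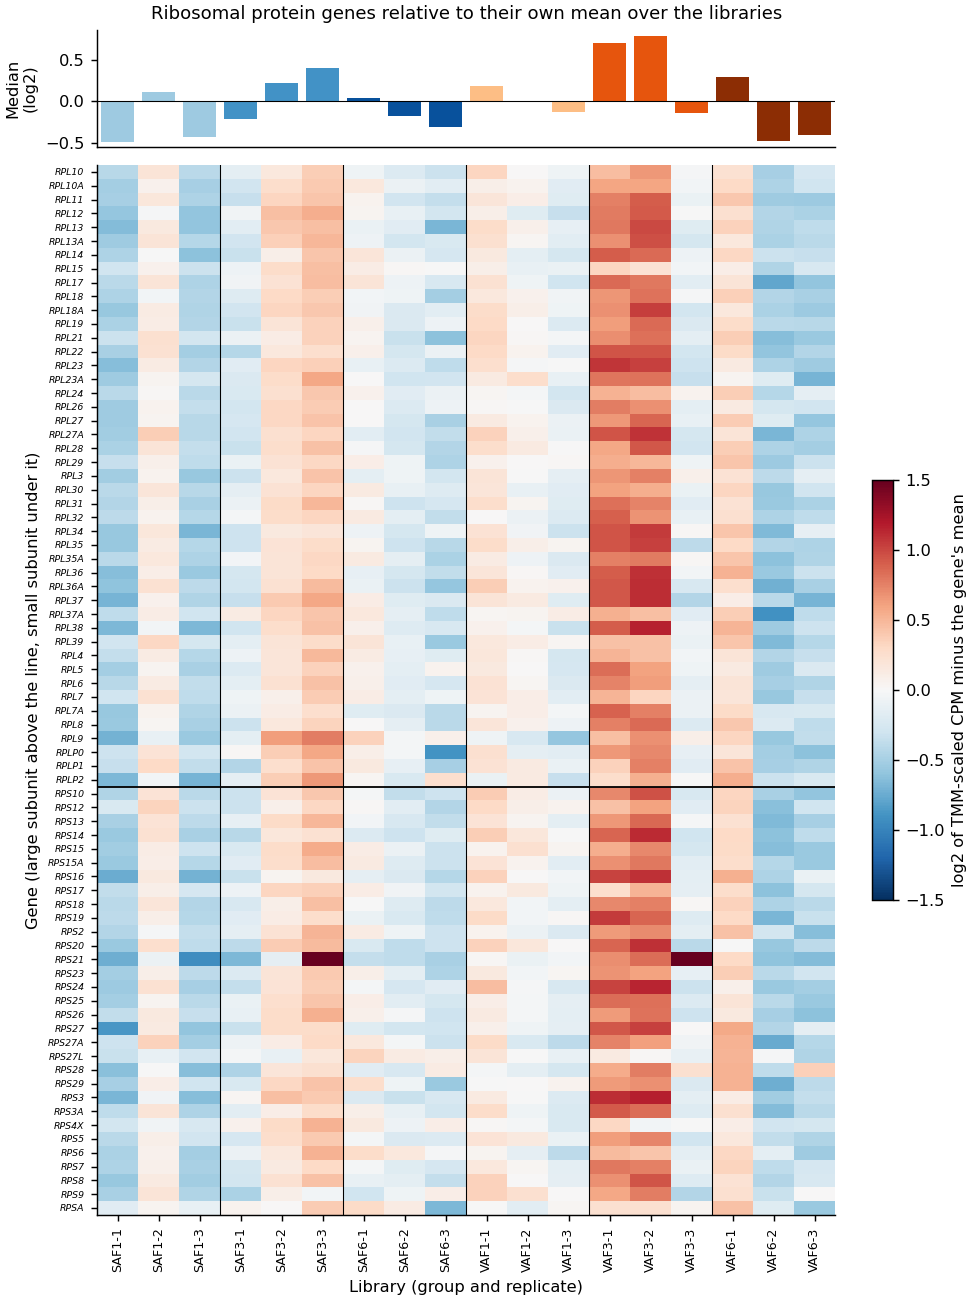
Lower panel: for 76 of the 77 members (rows) and 18 libraries (columns), the log2 TMM-scaled CPM minus the gene's mean, with red above and blue under that mean; upper panel: the median of the 77 in each library. Columns are nearly uniform from gene to gene, VAF3-1 and VAF3-2 have medians of 0.70 and 0.79, and RPS21 departs from the rest in SAF3-3 and VAF3-3.

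Of the 77 members, 72 (93.5%) had their highest values in VAF3-1 and VAF3-2 on CPM scaled by total counts, against 12.5% of the 11452 genes. With TMM scaling the shares were 64 members (83.1%) and 8.67%. The smooth muscle, urothelium and adipocyte markers of these libraries moved as given above, and their part in the members' values was not tested. In VAF3-3, whose share of 5.96% was near that of the other libraries, the smooth muscle list stood at 754 CPM, the urothelium list at 11.3 and the adipocyte list at 24100.

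**Figure D3:**
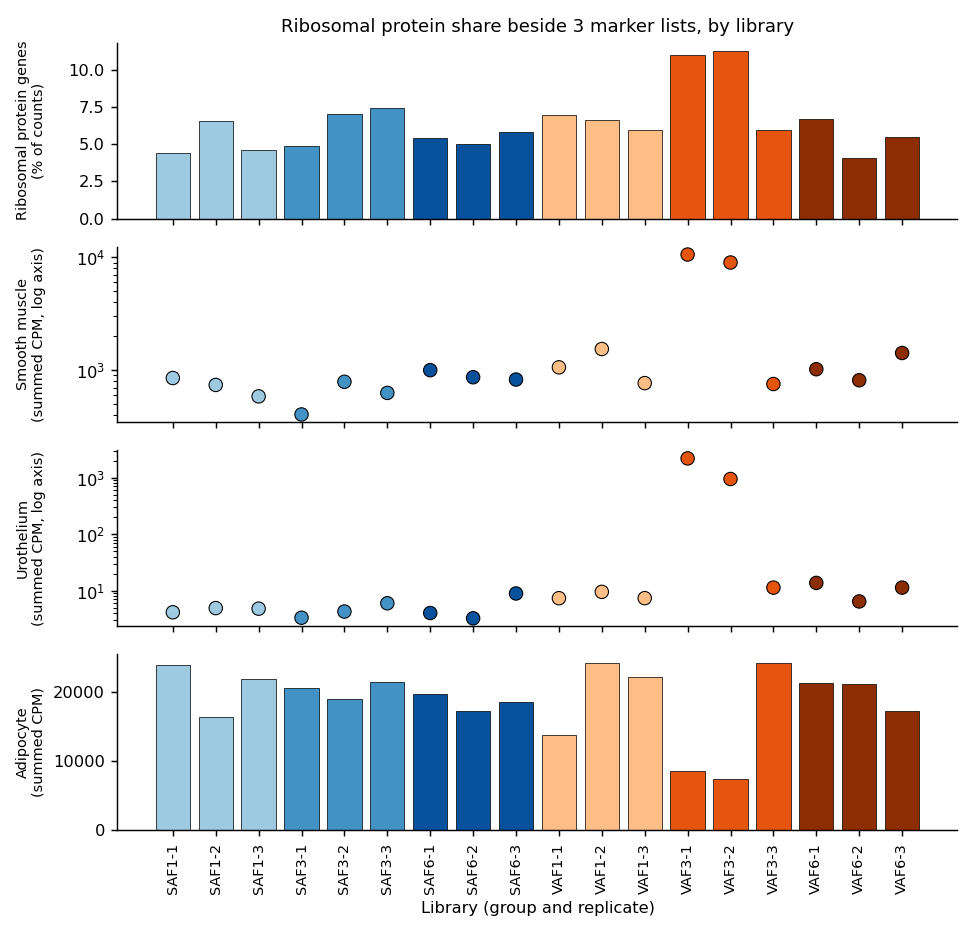
From top to bottom and by library: the share of counts of the ribosomal protein genes in percent, the summed CPM of the smooth muscle and the urothelium markers (points on log axes) and the summed CPM of the adipocyte markers (bars). VAF3-1 and VAF3-2 are highest in the first 3 panels and lowest in the last, at 8620 and 7440 CPM, while VAF3-3 lies among the other libraries in each.

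Levels per length were compared as FPKM, which divides CPM by the kilobases of annotated exon and was computed here from the counts. RPL37, a small protein of the large subunit, was highest at 2900 ± 1250 (SD, n = 18), followed by RPLP1 of the lateral stalk, which binds the elongation factors, at 2560 ± 713 (SD, n = 18) and RPS20 at 2500 ± 1060 (SD, n = 18). Their ranges of 1670 to 6270, 1610 to 4480 and 1440 to 5380 overlap, so their order is not set beyond the spread. By counts alone RPS2 led with 3.18% of the members' total, but its annotated exons add up to 5903 bases, and it stood at 344 ± 99.1 (SD, n = 18) FPKM. The lowest were RPL10L and RPL3L, which are paralogs known from single tissues, followed by RPS21. RPL10L, the testis paralog of RPL10, had 10 counts in SAF1-3 and 0 in the other 17 libraries. RPL3L, the muscle paralog of RPL3, had 6 to 16 counts per library and overlaps NDUFB10 on the opposite strand. RPS27L, a p53-responsive paralog of RPS27, stood at 75.7 ± 10.5 (SD, n = 18) FPKM and RPS21 at 60.8 ± 41.5 (SD, n = 18). The split of reads between RPS21 and a near-identical copy is uncertain, as described below. RPL39 of the large subunit stood at 641 ± 147 (SD, n = 18).

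RPS27L did not share the pattern of its family. Its TMM-scaled CPM were 44.5, 52.2 and 46.1 in SAF1, 54.9, 52.1 and 63.0 in SAF3, and 70.7, 61.2 and 59.8 in SAF6. In VAF they were 64.4, 55.9 and 52.0 at 1 month, 61.5, 57.0 and 52.0 at 3 months and 79.7 and 55.3 at 6 months. VAF3-1 and VAF3-2 were thus inside the range of the other groups, whereas RPS27 was at 970 and 1030 in these libraries and at 278 to 754 in the others. RPS4X, the X-linked gene of a small subunit protein, was at 1840 and 1450 in VAF3-1 and VAF3-2 and between 1230 and 2140 elsewhere. Taken against the block median, RPS4X was 0.833 lower and RPS27L 0.766 lower in VAF3-2 on the log2 scale. Besides these and RPS21, the departures of more than 1.5-fold from the block were RPLP0 in SAF6-3, below its block, and RPS28 in VAF6-3, above it.

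Depots were compared at each age with edgeR's quasi-likelihood test, and a call needed a p under 0.05 after Benjamini-Hochberg adjustment over all genes tested and a change of more than 1.5-fold in either direction. No member was called at any age by edgeR or by DESeq2, and none had an unadjusted p under 0.05 in edgeR. A p that misses the threshold does not show equal levels. At 1 month 77 of the 78 members tested were lower in SAF1 than in VAF1, with a median log2FC of −0.27 against −0.00 over all 15064 genes tested. Of these genes 0% were called, while 11.3% reached p under 0.05 before adjustment. The median SE of a member was 0.219, so most members differed by about their own error. The size rested on single libraries, since the median was −0.50 without SAF1-2 and −0.17 without SAF1-1. None of the 78 members had groups that did not overlap, against 8.7% of all genes higher in SAF1 and 8.78% lower. The smallest p belonged to RPS21, with a log2FC of −0.50 ± 0.234 (SE) and an edgeR adjusted p of 0.454. RPS16 was next in size at −0.49 ± 0.273 (SE). At the other end were RPL3L at 0.43 ± 0.439 (SE), from a few counts, and RPS27A, which is made as a fusion with ubiquitin, at −0.03 ± 0.281 (SE).

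At 3 months 73 of 77 members were lower in SAF3, with a median log2FC of −0.36, and 0.0401% of all genes tested were called. RPS16, a small subunit protein whose tail touches the tRNA, was at 402, 522 and 561 TMM-scaled CPM in SAF3 and at 1020, 1090 and 457 in VAF3. VAF3-3 lay within SAF3, and VAF3-1 and VAF3-2 well above it. The log2FC was −0.80 ± 0.363 (SE) and the edgeR adjusted p 0.42. RPL34 of the large subunit showed the same split, with 262, 361 and 371 in SAF3 and 625, 674 and 329 in VAF3, a log2FC of −0.72 ± 0.324 (SE) and an edgeR adjusted p of 0.419. RPLP0, the stalk protein that anchors RPLP1 and RPLP2, had a log2FC of −0.14 ± 0.326 (SE), with 1780, 2270 and 2620 in SAF3 and 2760, 2890 and 1610 in VAF3. The most positive members were RPS4X at 0.20 ± 0.259 (SE) and RPL15 of the large subunit at 0.05 ± 0.247 (SE). No member had groups that did not overlap, against 8.08% of all genes higher and 7.87% lower in SAF3.

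The direction at 3 months rested on 2 libraries. With VAF3-1 and VAF3-2 left out, 76 of 78 members were higher in SAF3 than in VAF3-3, with a median log2FC of 0.30 and 0 members called while 0.107% of genes were; the lone VAF3 library is then assumed to vary like the others. With VAF3-3 left out instead, the median was −0.61 and 15 of 78 members (19.2%) were called, all lower in SAF3, beside 17.6% of all 15571 genes. The members' share was close to that background. Among the 15 were RPS16, RPL34, RPS19, RPL36, RPS14 and RPS3, with RPS16 at −1.12 ± 0.216 (SE) and an edgeR adjusted p of 0.015. RPS19, whose loss causes Diamond-Blackfan anaemia in people, was at −0.91 ± 0.211 (SE) with an edgeR adjusted p of 0.0274.

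At 6 months 59 of 78 members were lower in SAF6, with a median log2FC of −0.10, and 0% of all genes were called while 6.79% reached p under 0.05 unadjusted. The direction depended on which of the 2 VAF6 libraries was used: the median was 0.33 without VAF6-1 and −0.42 without VAF6-2, and 0.33 with the other reading of the labels. Here same-numbered SAF and VAF libraries deviated together, and with the number as a block 766 genes (5.12%) and 0 members were called. The lowest members were RPS27 at −0.40 ± 0.356 (SE) and RPS16 at −0.37 ± 0.361 (SE), and the highest RPL15 at 0.19 ± 0.301 (SE) and RPL9 at 0.19 ± 0.398 (SE). No member had groups that did not overlap, against 14.5% of genes higher and 13.8% lower in SAF6.

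Over the 3 ages in 1 fit, 74 of 78 members were lower in SAF, with a median log2FC of −0.25, and 0 were called by edgeR or DESeq2 beside 4.16% of 16664 genes in edgeR. An unadjusted p under 0.05 was reached by 10 members, or 12.8%, against 26% of all genes. RPS16 had the smallest, with a log2FC of −0.57 ± 0.199 (SE) and an edgeR adjusted p of 0.0935. Without VAF3-1 and VAF3-2 the median was −0.09, with 70 of 78 members lower in SAF and 0 called beside 2.08% of genes. Without VAF3-3 it was −0.32, and RPS16 was called beside 10.2% of genes, at −0.65 ± 0.182 (SE) with an edgeR adjusted p of 0.0267. The depot difference was then compared between ages in 1 edgeR fit. Between 3 months and 1 month 0 members were called and 0 reached p under 0.05 before adjustment, beside 0% and 5.66% of genes. Between 6 and 3 months the same 2 counts were 0 and 0, beside 0% and 8.7% of genes, and DESeq2 called 0 members in either. The medians of these differences were −0.05 and 0.21, and both moved with VAF3-1 and VAF3-2, without which they were 0.59 and −0.45. In the study's read filtering, a statistic of undetermined bases sets all SAF libraries but SAF6-3 apart from the VAF libraries, and at 1 and 3 months this split cannot be told apart from depot.

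**Figure D4:**
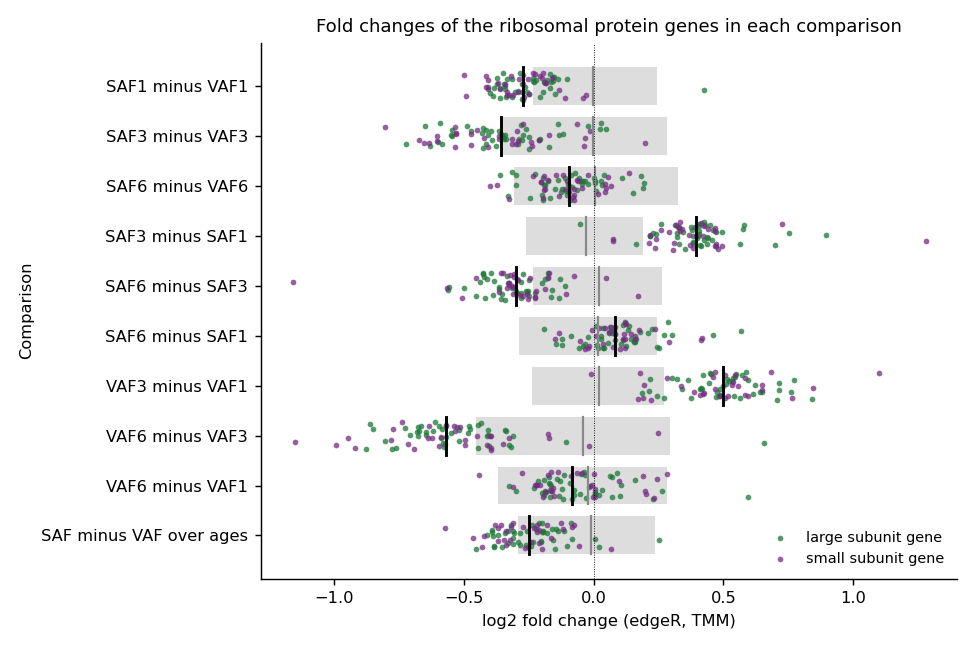
Log2 fold change of each member tested (points, jittered vertically, by subunit) in 9 comparisons of 2 groups and in SAF against VAF over the 3 ages; black lines mark the members' median and grey bands the middle 50% of all genes tested, with their median as a grey line. The members sit to one side of all genes in most comparisons, with medians from −0.57 (VAF6 against VAF3) to 0.50 (VAF3 against VAF1), and none is called.

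Between 1 and 3 months in SAF, 77 of 78 members were higher in SAF3, with a median log2FC of 0.39 against −0.03 over all genes. In edgeR 0 were called beside 0.101% of 14892 genes, and 6 (7.69%) had an unadjusted p under 0.05 beside 13.6% of genes. DESeq2 called 2, RPL9 at 0.91 ± 0.276 (SE) with an adjusted p of 0.0319 and RPS3 at 0.74 ± 0.232 (SE) with 0.0419. Of the 22065 genes with a count in these groups DESeq2 called 2.49%. That total includes genes to which it gave no adjusted p, such as RPL10L. RPS3, which lines the channel where messenger RNA enters the ribosome, was at 637, 990 and 659 TMM-scaled CPM in SAF1 and at 1050, 1400 and 1350 in SAF3. These groups did not overlap, and edgeR gave a log2FC of 0.72 ± 0.231 (SE) with an adjusted p of 0.231. RPL9 was at 786, 1180 and 870 in SAF1 and at 1160, 1980 and 2180 in SAF3, where SAF3-1 fell inside SAF1, with 0.89 ± 0.283 (SE) and an edgeR adjusted p of 0.227. RPLP2 and RPL12, which both sit at the base or arms of the stalk, followed at 0.75 ± 0.267 (SE) and 0.70 ± 0.237 (SE) with edgeR adjusted p of 0.277 and 0.258. The smallest differences were those of RPL3L at −0.05 ± 0.438 (SE) and RPS12 at 0.07 ± 0.247 (SE). Groups without overlap were found for RPS3, RPS4X and RPL37A, all higher in SAF3, which is 3 of 78 beside 10.6% of all genes, and 0 were lower in this way beside 9.13%. The median ranged from 0.27 without SAF3-3 to 0.60 without SAF1-2.

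Between 3 and 6 months in SAF, 75 of 77 members were lower in SAF6, with a median log2FC of −0.30, and 0 were called by edgeR or DESeq2 beside 0% of genes in edgeR. RPS3 alone had an unadjusted p under 0.05, beside 9.56% of genes; it was at 887, 816 and 870 in SAF6, below all of SAF3, with −0.57 ± 0.24 (SE) and an edgeR adjusted p of 0.517. RPL7A also had groups that did not overlap, with 1030, 1010 and 888 in SAF6 and 1100, 1270 and 1390 in SAF3, and 8.55% of genes were lower in SAF6 in this way; 0 members were higher, beside 7.01%. The 2 members above 0 were RPS27L at 0.17 ± 0.161 (SE) and RPS9 at 0.05 ± 0.246 (SE). The median ranged from −0.45 without SAF3-1 to −0.17 without SAF3-3. Between 1 and 6 months the median was 0.08, with 62 of 78 members higher in SAF6 and 0 called by edgeR or DESeq2 beside 0.303% of genes in edgeR. It ranged from −0.01 without SAF1-1 to 0.32 without SAF1-2. RPS27L had the only unadjusted p under 0.05, with 0.41 ± 0.161 (SE) and an edgeR adjusted p of 0.35, and it and RPL9 were the members whose SAF6 values lay above all of SAF1, beside 8.09% of genes.

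Between 1 and 3 months in VAF, 76 of 77 members were higher in VAF3, with a median log2FC of 0.50 against 0.02 over all genes. In edgeR 0 were called beside 0% of 15275 genes, and 7 (9.09%) had an unadjusted p under 0.05 beside 9.07% of genes. DESeq2 called RPS21, at 1.10 ± 0.313 (SE) with an adjusted p of 0.0181, where it called 2.81% of the 22161 genes with a count in these groups. RPS3 was at 1130, 1020 and 895 in VAF1 and at 2220, 2310 and 928 in VAF3, so VAF3-3 lay within VAF1. RPS28, a small subunit protein close to the messenger RNA exit, was at 272, 251 and 231 in VAF1 and at 408, 472 and 326 in VAF3. Its groups did not overlap, and its log2FC was 0.68 ± 0.226 (SE) with an edgeR adjusted p of 0.413. The lowest members were RPS27L at −0.01 ± 0.175 (SE) and RPS4X at 0.17 ± 0.251 (SE). The other members without overlap were RPS21, RPL9, RPL24 and RPSA, which makes 5 of 77 (6.49%) beside 5.51% of all genes, and 0 were lower beside 6.89%. With VAF3-1 and VAF3-2 left out, 63 of 78 members were lower in VAF3-3 than in VAF1, at a median of −0.16, with 0 called beside 0.00611% of genes. With VAF3-3 left out, all 78 were higher, at a median of 0.73, and 11 (14.1%) were called beside 6.44% of 15719 genes. Those were RPS3, RPS27, RPL38, RPL36, RPL23, RPL34, RPL12, RPS16, RPL14, RPS21 and RPL32, led by RPS3 at 1.15 ± 0.201 (SE) with an edgeR adjusted p of 0.0266. RPL38, which is needed for the translation of HOX messenger RNAs in the mouse embryo, was at 1.12 ± 0.201 (SE) with 0.0289 in that edgeR fit.

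Between 3 and 6 months in VAF, 76 of 78 members were lower in VAF6, with a median log2FC of −0.57 against −0.04 over all genes, and 0 were called by edgeR or DESeq2 beside 0% of genes in edgeR. Only RPS21 had an unadjusted p under 0.05, beside 10.8% of genes, and only its groups did not overlap, beside 12.7% of genes lower and 13.9% higher in VAF6. RPS3 was at 1110 and 715 in VAF6, on either side of the 928 of VAF3-3, with −0.99 ± 0.509 (SE) and an edgeR adjusted p of 0.544. RPS20 was at 1190 and 805 in VAF6 and at 2190, 2560 and 904 in VAF3, with −0.92 ± 0.528 (SE) and an edgeR adjusted p of 0.594. RPL3L at 0.66 ± 0.782 (SE) and RPS27L at 0.25 ± 0.253 (SE) were the members above 0. With VAF3-1 and VAF3-2 left out the median was 0.11, with 59 of 78 members higher in VAF6, and RPS21 was called beside 0.96% of 15527 genes. Without VAF6-2 the median was −0.22 and without VAF6-1 −0.97. Between 1 and 6 months the median was −0.08, 0 members were called by edgeR or DESeq2 beside 0.936% of genes in edgeR, and 0 members had an unadjusted p under 0.05 beside 17.9% of genes. That median was −0.52 without VAF6-1, 0.22 without VAF6-2 and −0.47 with the other reading of the labels. RPS20 was the only member without overlap, lower in VAF6, beside 18.6% of genes.

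Genes that are often used as references in quantitative PCR are among the members. RPLP0 ranged from 943 (SAF6-3) to 2890 (VAF3-2) TMM-scaled CPM, RPL13A from 881 (SAF1-1) to 2510 (VAF3-2), RPL4 from 1110 (SAF1-3) to 2140 (VAF3-1) and RPS18 from 397 (VAF6-2) to 923 (VAF3-2). Against VAF3, SAF3 had log2FC of −0.34 ± 0.387 (SE) for RPL13A, −0.12 ± 0.286 (SE) for RPL4 and −0.42 ± 0.304 (SE) for RPS18. Without VAF3-1 and VAF3-2 these were 0.48 ± 0.371 (SE), 0.26 ± 0.315 (SE) and 0.10 ± 0.328 (SE). None of the 4 was called in any comparison.

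RPS21, one of the smallest proteins of its subunit, departed from the family in 2 libraries, and it has a near-identical annotated copy. The copy, LOC100518848, is a gene of 1 exon on an unplaced scaffold. Its coding sequence matches that of RPS21 (chr17:61763606-61764823, plus strand) at 251 of 252 bases, and the stretch from base 193 to 252 of the coding sequence holds the only difference, T234C, counted from the first base of the start codon with the RPS21 base first and marked by a capital.
RPS21: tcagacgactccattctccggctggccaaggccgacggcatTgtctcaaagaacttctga
LOC100518848: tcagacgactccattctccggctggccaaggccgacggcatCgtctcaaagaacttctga
RPS21 had 1232 counts in SAF3-3 and 1207 in VAF3-3, and 181 to 633 in the other 16 libraries. The copy had 567 and 607 in SAF3-3 and VAF3-3, and 452 to 2094 in the others. RPS21 therefore held 68.5% and 66.5% of the sum of both in these libraries and 19.6% to 30.03% elsewhere. By their library names both are replicate 3 at 3 months, while the title places VAF3-3 at 6 months. The labels do not say whether they came from the same pig. Over all libraries the copy's counts came to 246% of those of RPS21, so the split of reads between these genes is uncertain.

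**Figure D5:**
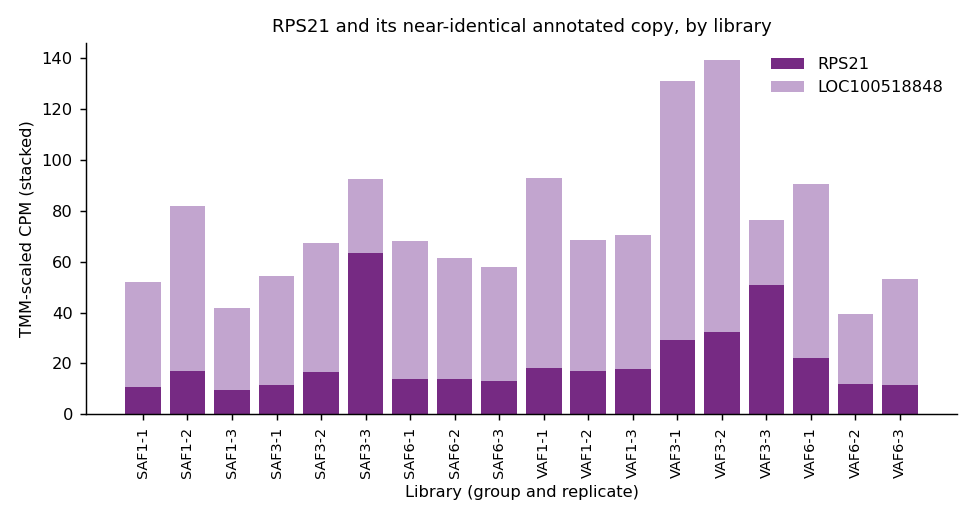
TMM-scaled CPM of RPS21 (dark) with those of its copy LOC100518848 (light) stacked on top, by library. RPS21 makes up 68.5% of the stack in SAF3-3 and 66.5% in VAF3-3, and 19.6% to 30.03% in the other libraries.

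With both counted as 1 gene, an addition made after their counts were seen, the log2FC of RPS21 moved nearer to the members' median in 7 of 10 comparisons and away from it in 3. For VAF3 against VAF1 it was 0.58 ± 0.276 (SE) in place of 1.10 ± 0.251 (SE), with an edgeR adjusted p of 0.601 in place of 0.34. For SAF3 against SAF1 it was 0.27 ± 0.283 (SE) in place of 1.28, for SAF6 against SAF3 −0.19 ± 0.219 (SE) in place of −1.16, and for VAF6 against VAF3 −0.83 ± 0.447 (SE) in place of −1.15. It moved away for SAF3 against VAF3, to −0.70 ± 0.302 (SE) from −0.31, for VAF6 against VAF1, to −0.25 from −0.04, and for SAF against VAF over the ages, to −0.42 from −0.38. With VAF3-1 and VAF3-2 left out, the value with the copy was −0.03 ± 0.242 (SE) for VAF3 against VAF1, −0.24 ± 0.406 (SE) for VAF6 against VAF3 and −0.10 ± 0.307 (SE) for SAF3 against VAF3. Matches of at least 95% identity over at least 150 bases in another annotated gene were found for 27 of the 79 members, 35 in all. Those of RPL15 in WDR33 and of RPL36A in NLN lie in genes of another function, whose counts are not those of a copy. RPS21 was the only member whose matching genes held over 10% of its own counts. The copy of RPL9 held 8.79%. RPL9 outnumbered it by 8.43-fold to 21.4-fold, with 16.97 and 17.7 in SAF3-2 and SAF3-3, 8.785 in SAF3-1 and 8.43 to 9.83 in SAF1. Counted with it, RPL9 was at 0.84 ± 0.274 (SE) in SAF3 against SAF1. The spans of 13 members overlap an annotated gene on the opposite strand, such as RPL9 with KLB and RPL29 with ACY1, and the strand setting of the counting is not given in the sources used here.

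Members with and without a tract at the annotated start had like medians. The split follows the annotated starts, and a member without a tract there, such as RPS21, can hold its pyrimidine run nearby. It therefore does not separate TOP messenger RNAs from others. In SAF3 against SAF1 the 21 members with a tract had a median log2FC of 0.41 and the other 57 a median of 0.38. In VAF3 against VAF1 the medians were 0.50 and 0.50, and in VAF6 against VAF3 they were −0.60 and −0.53. The interquartile ranges overlapped in each. The medians without VAF3-1 and VAF3-2 were −0.14 and −0.20 in VAF3 against VAF1 and 0.08 and 0.11 in VAF6 against VAF3.

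Other genes of the pathway were taken as lists, and their medians are given beside those of the members as descriptions. Among 8 ribosomal protein genes or relatives that the symbol rule does not take, such as FAU and RACK1, 0 were called in any comparison, with medians of 0.38 in SAF3 against SAF1 and −0.28 in VAF6 against VAF3. The list of 23 other TOP messenger RNAs, mostly translation factors, had medians of 0.35 in SAF3 against SAF1, 0.34 in VAF3 against VAF1 and −0.47 in VAF6 against VAF3, with 0 called. Ribosome biogenesis factors, 70 genes that build the subunits in the nucleolus, had medians of 0.22, 0.14 and −0.04 in these comparisons, and 0 were called. Of 19 genes of RNA polymerase I, which makes the ribosomal RNA precursor, 38 translation initiation factors and 15 elongation and release factors, 0 were called in any comparison. With VAF3-1 and VAF3-2 left out, the medians in VAF3 against VAF1 and VAF6 against VAF3 were −0.10 and −0.16 for the other TOP genes and −0.04 and 0.13 for the biogenesis factors, and that of the relatives in VAF6 against VAF3 was 0.26. In SAF3 against SAF1, where 13.6% of all genes had p under 0.05 before adjustment in edgeR, so did 24.3% of the biogenesis factors, 23.7% of the initiation factors, 21.7% of the other TOP genes, 15.8% of the genes of RNA polymerase I, 12.5% of the relatives and 0% of the elongation and release factors. Over the ages, beside 26% of all genes, the shares were 22.9%, 15.8%, 17.4%, 42.1%, 37.5% and 20% in the same order. The lists share genes, such as EIF4B in the initiation and the TOP lists.

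The ribosomal proteins of the mitochondrion, which are built into a separate ribosome, are 77 genes. They took 0.226% to 0.404% of the counts, a 1.79-fold range. Of the 76 tested, 74 were higher in SAF3 than in SAF1 (median log2FC 0.35), a direction also seen for the cytosolic members. An unadjusted edgeR p under 0.05 was reached there by 33 of the 76, beside 13.6% of all genes and 7.69% of the cytosolic members. In VAF6 against VAF3 65 of the 76 were higher, with a median of 0.28, where the cytosolic members had −0.57, and with VAF3-1 and VAF3-2 left out 72 were, with a median of 0.54. In VAF6 against VAF1 73 were higher at a median of 0.41, and MRPL34 of the large mitochondrial subunit rose by 1.08 ± 0.163 (SE) on the log2 scale with an edgeR adjusted p of 0.0464. It was the only one called in any comparison, 1 of 76 where 0.936% of all genes were called. By the reading by title MRPL34 was at 0.322 ± 0.47 (SE), with an edgeR adjusted p of 0.766 and no call. Nor was it called by edgeR with all groups in 1 fit, at an adjusted p of 0.153, or with library totals, at 0.0759. The call was lost without any 1 of the 5 libraries, with edgeR adjusted p from 0.0779 to 0.198, and with VAF6-3 included the log2FC was 0.68 ± 0.454 (SE). Among 25 regulators of ribosomal protein synthesis, such as mTOR, MYC and LARP1, RPS6KB1 alone was called, which is 4% of the list beside 4.16% of all genes. This kinase phosphorylates RPS6, and its RNA was higher in SAF than in VAF over the 3 ages, with a log2FC of 0.60 ± 0.131 (SE) and an edgeR adjusted p of 0.0185. The call was lost with VAF3-1 and VAF3-2 left out, at 0.47 ± 0.121 (SE) and an edgeR adjusted p of 0.0571. It also fell under the fold limit with library totals, at a log2FC of 0.52. The same held without SAF1-1, SAF3-1, VAF3-1 or VAF3-2 alone, where the log2FC was 0.52 to 0.57.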

How the data were processed

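The study extracted total RNA from SAF and VAF, sequenced paired reads, cleaned them by fastp, mapped the rest with HISAT2 (2.0.4 in the submitters' processing notes) on the Sscrofa11.1 genome and counted with HTSeq-count. The values the authors deposited are these counts per gene, without normalization. The annotation release and the strand setting are not given in the sources used here. Each library is taken as 1 pig's tissue, and p-values measure only the spread between libraries.

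Groups follow the depot and age in the library names of the count table. For 4 VAF libraries these names differ from the titles in the labels. The age differs for VAF6-1 and VAF3-3, and the replicate number alone for VAF6-2 and VAF6-3. The other reading follows the titles. VAF3 then holds VAF6-1 besides VAF3-1 and VAF3-2, and VAF3-3 drops out. Members and gene lists were chosen with earlier results of these data known. Pairs of groups were tested on their own libraries by the quasi-likelihood method of edgeR 4.0.16 (R 4.3.3) after TMM scaling and filterByExpr, without a block. SE is the absolute log2FC over the root of F. DESeq2 1.42.0 was an alternative. Depots over the 3 ages, with age as a factor, and 2 interactions were fitted on 17 libraries. Of 79 members, 77 or 78 passed the filter. At this depth of 16404239 to 22857354 counts, 77 members had at least 30 counts in every library. Fits were tested on simulated data. Python 3.11.15, pandas 2.3.3 and numpy 2.4.6 made the other tables, and sequences came from RefSeq annotation release 106. Of the 29884 genes, 29862 matched it.

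Genes named are the members called, the 2 most positive and 2 most negative per comparison of depots or neighbouring ages, the 3 highest and 3 lowest per length, paralogs, common reference genes and members in the study's lists; others were chosen after their values were seen. Some genes are counted in the totals but not reported by name here. Same-numbered SAF and VAF libraries deviated together most at 6 months, where the correlation of their deviations over genes was 0.562, 0.450 and 0.633. It was −0.053 to 0.303 at 1 month and 0.044 to 0.386, all positive, at 3 months. Between different numbers it was −0.285 to 0.200 at 1 month, −0.382 to 0.140 at 3 months and −0.544 to 0.146 at 6 months. The main depot tests do not use a pairing, which the labels do not give. Alternatives were DESeq2, DESeq2's size factors, library totals, no low-count filter, all groups in 1 fit, the replicate block, the tests with VAF6-3, the reading by title, no fold limit and each library left out. Chosen after seeing the data were VAF3-1 and VAF3-2 left out together, a full account without VAF3-3, and RPS21 and RPL9 counted with their copies.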

Additional observations from a re-analysis of the deposited data

How the results depend on the processing

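The count of members called stayed at 0 in every comparison under most alternatives. The exceptions were DESeq2, which called 2 in SAF3 against SAF1 and 1 in VAF3 against VAF1, the replicate block in VAF6 against VAF3, which called 6 of 78 beside 14.7% of genes (RPL36A, RPS3, RPS24, RPL27A, RPS20 and RPL23), and, with VAF3-1 and VAF3-2 left out, 1 in VAF6 against VAF3. The ages hold different pigs, so that block joins libraries by number alone. With VAF6-3 left out, VAF3-3 has no partner in that fit, and the block leaves little to estimate the spread from. The replicate block changed no other count of members. With 1 library left out at a time the count ranged from 0 to 15 in SAF3 against VAF3, from 0 to 11 in VAF3 against VAF1 and from 0 to 1 over the 3 ages, where the call without VAF3-3 was RPS16. Without VAF3-1 and VAF3-2 the members' median log2FC was 0.304 in SAF3 against VAF3, −0.161 in VAF3 against VAF1, 0.109 in VAF6 against VAF3, and 0.59 and −0.448 for the depot difference at 3 against 1 and at 6 against 3 months. With the other reading of the labels it was 0.333 in SAF6 against VAF6, −0.471 in VAF6 against VAF1 and 0.724 for the depot difference at 6 against 3 months. With 1 library left out the median ranged from −0.423 to 0.327 in SAF6 against VAF6, from −0.52 to 0.223 in VAF6 against VAF1, from −0.0724 to 0.709 for the depot difference at 6 against 3 months and from −0.324 to 0.164 at 3 against 1 month. Beyond 1 SD between the libraries of a group, the mean share moved in SAF6 to 6.41% without the 10 highest genes of each library in the total, to 6.00% without mitochondrial genes and to 4.67% without the 5 members with most counts, and in VAF1 to 7.46% and 5.63% for the first and last of these. In the other 4 groups, whose libraries spread more, the same settings moved it by less than 1 SD, although without the 10 highest genes by like or larger amounts. Scaling by library totals shifted the median of all genes by −0.218 in SAF3 against VAF3, −0.287 in VAF6 against VAF3 and −0.215 in VAF6 against VAF1, and the members with it. Of the members, RPL3L and RPL10L alone had under 30 counts in a library, which limits what can be said of them.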

Other observations

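Lipogenesis genes, a list of 8 with FASN and SCD, were lowest in SAF6-3 and VAF6-3, at 1110 and 1440 CPM against 5620 to 101000 in the other 16 libraries. The share of the ribosomal protein genes in these libraries was 5.84% and 5.46%, inside the range of the others, although the 10 highest genes took only 8.59% and 6.59% of their counts. The opposite end of the lipogenesis list was VAF6-2 at 101000 CPM, which also had the lowest share of ribosomal protein genes, 4.10%, with 8 of them among its 100 highest genes. Cell division genes, a list of 14, summed to 53.5 to 290 CPM, with the highest value in VAF1-3 and 108 and 183 in VAF3-1 and VAF3-2. Macrophage genes summed to 315 CPM in SAF1-1 and to 4000 in VAF6-3.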
